A study of Pseudotsuga menziesii with 72 samples.

Results

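The transcripts described here are the 150 whose levels varied least over 2 days in the needles of 6 Douglas-fir trees (Pseudotsuga menziesii). They were chosen by their own values. In each of 70 libraries the count of a transcript was divided by the library's summed counts and given per 1000000 (CPM), and among the 7139 transcripts with a mean from 20 to below 1000 CPM the 150 with the lowest coefficient of variation (CV, the SD divided by the mean over the 70 libraries) were taken. These 150 are part of 180879 transcripts counted, and the other 6989 transcripts of the same range of means are what they are set beside.

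Daily change is widespread in plant leaves. A circadian clock, together with direct responses to light and temperature, moves transcripts of photosynthesis, carbon metabolism and stress responses up and down through the day and night. Transcripts that stay level are used as internal references when other transcripts are measured by quantitative PCR, and the usual way to find them is to rank transcripts by their variation over many samples. The transcripts carry identifiers without gene names here, so no role is given to any of them, and markers of needle tissue were not checked.

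The trees were 3 years old and belonged to 3 families of 2 trees each that share 1 parent (1A and 1B, 2A and 2B, 3A and 3B). All came from a single source, Oregon Siskiyou at low elevation, and were grown in Corvallis. Needles of the current year's cohort were taken from every tree at 12 collections, 4 hours apart, the first at a clock time of 2:00, so each of 6 clock times was sampled on both days. One polyA library was made per tree and collection. Libraries of 1 tree are repeated samples of that tree, and the 6 trees are the replicates.

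Of the 72 libraries, 2 were left out, those labelled tree 1B hour 4 and tree 2A hour 4, which an earlier look at these data had found nearer each other's tree than their own. Totals of the 70 libraries kept ran from 10.3 M to 55.9 M counts (median 22.8 M). Day 2 had 36 libraries and day 1 had 34, the clock time of 6:00 had 10 and the other clock times 12 each, and trees 1B and 2A had 11 and the other trees 12 each. At this depth the 150 transcripts were well counted: the lowest count of any of them in any library was 216.

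By the rule, CVs of the 150 ran from 7.57% to 12.0% (median 11.1%), and those of the other transcripts of the range had a median of 25.2%. The last transcripts inside the limit were psme_t016647, with a CV of 11.992% at 64.4 CPM, and psme_t031066, with 11.996% at 219.8 CPM. The first outside were psme_t008730, with 12.003% at 187.5 CPM, and psme_t005203, with 12.009% at 66.0 CPM. No gap sets the 150 apart, as the plot of variation against abundance shows.

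**Figure D1:**
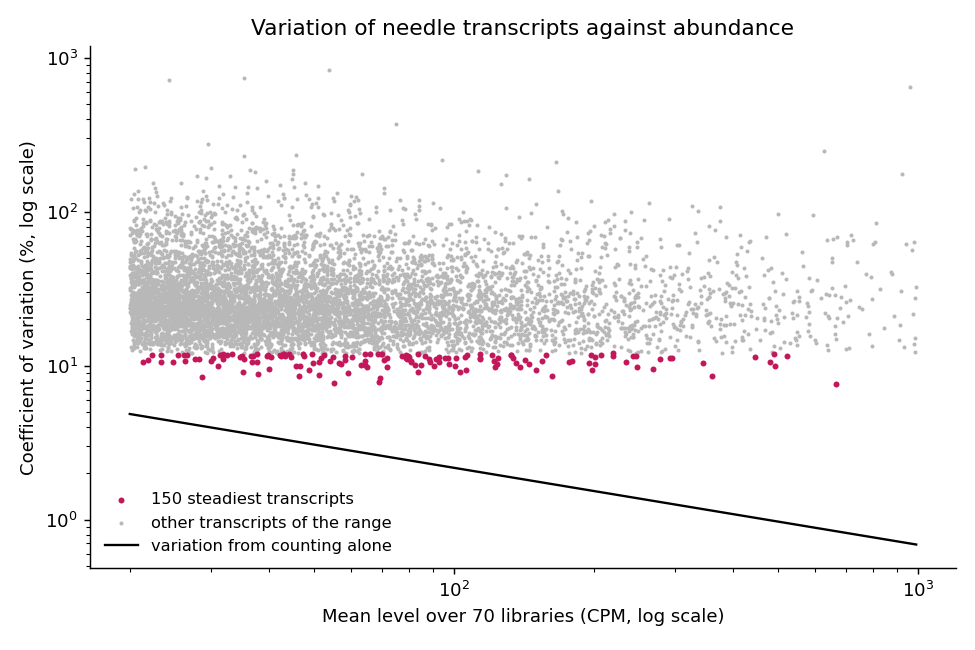
Coefficient of variation (%) over 70 libraries against mean level (CPM), both on log scales, for the 150 steadiest transcripts (red) and the other 6989 transcripts of the range (grey). The black line is the variation that counting alone would give over the 70 libraries. The red points lie below 12.0% and above the line at every level.

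Between its lowest and its highest library, each of the 150 spanned a ratio of 1.40 to 1.99 (median 1.67). All 150 stayed under a ratio of 2, and 14 stayed under 1.5. The same ratio had a median of 3.16 among the 6959 other transcripts that were counted in every library. Random sampling of reads accounted for little of the variation that was left: a median of 5.32% of the variance of the 150 (0.671% to 23.0%), and 1.46% among the others.

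The chosen transcripts were counted more deeply than the rest of the range. Their mean levels ran from 21.4 to 665.9 CPM with a median of 71.2 CPM, and the others had a median of 42.7 CPM. The share chosen was 0.680% of the 2060 transcripts of 20 to 30 CPM, 1.75% of the 2055 of 30 to 50 CPM, 2.91% of the 1686 of 50 to 100 CPM, 3.68% of the 816 of 100 to 200 CPM and 4.02% of the 522 of 200 to 1000 CPM. CPM values are not divided by transcript length, so they do not rank transcripts by abundance per molecule.

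The steadiest transcript was psme_t022402, which was also the most highly counted of the 150. Its level averaged 665.9 ± 50.4 CPM (SD, n = 70 libraries), with a lowest library of 554.0 CPM, a median of 665.5 CPM and a highest of 773.3 CPM. By tree its mean was highest in 3A, at 713.0 ± 36.4 CPM (SD, n = 12), and lowest in 1B, at 632.3 ± 37.6 CPM (SD, n = 11). Libraries of tree 3A spanned 625.8 to 750.4 CPM and those of tree 1B 554.0 to 676.1 CPM, so the 2 trees overlapped. By clock time its mean was highest at 10:00, at 707.1 ± 40.6 CPM (SD, n = 12), and between 649.6 and 671.7 CPM at the other 5 clock times.

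The next by CV was psme_t012140, with a CV of 7.73%. It averaged 55.1 ± 4.3 CPM (SD, n = 70), and its libraries ran from 45.9 to 67.4 CPM around a median of 55.5 CPM. Unlike psme_t022402, it had its highest clock-time mean at 18:00, at 58.7 ± 5.3 CPM (SD, n = 12), and its lowest at 14:00, at 52.4 ± 4.0 CPM (SD, n = 12). The third, psme_t015900 (CV 7.79%), averaged 68.9 ± 5.4 CPM (SD, n = 70) with libraries from 56.9 to 81.4 CPM. Its clock-time means lay between 67.3 and 70.4 CPM, closer together than the SD within any clock time.

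The other 3 of the 6 lowest CVs were at different levels. Transcript psme_t025771 had a CV of 8.34% at a mean of 69.2 CPM, psme_t025318 had 8.54% at 360.5 CPM, and psme_t013590 had 8.46% at 28.6 CPM. For psme_t013590, counting error made up 23.0% of the variance, the highest share of any of the 150. The lowest means among the 150 belonged to psme_t013977 (21.4 CPM), psme_t007507 (21.9 CPM) and psme_t021969 (22.3 CPM), and after psme_t022402 the highest belonged to psme_t009315 (521.4 CPM) and psme_t024507 (492.4 CPM).

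The variation that was left was larger within trees than between their means. The CV within a tree had a median of 8.85% over the 150, against 18.1% among the other transcripts of the range, and the CV of the 6 tree means had a median of 6.05%, against 16.1%. The ratio of the highest to the lowest tree mean ran from 1.07 to 1.33 over the 150 (median 1.17), and its median was 1.53 among the others. The ratio of the highest to the lowest clock-time mean ran from 1.02 to 1.21 (median 1.10), with a median of 1.28 among the others. Tree, taken alone, accounted for a median of 21.7% of the variance of the 150 (adjusted R2), clock time for 2.82% and day for 1.09%, and for the others these medians were 31.8%, 6.42% and 2.76%. All of these values follow from libraries that the choice used, and describe the 150 without testing them.

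**Figure D2:**
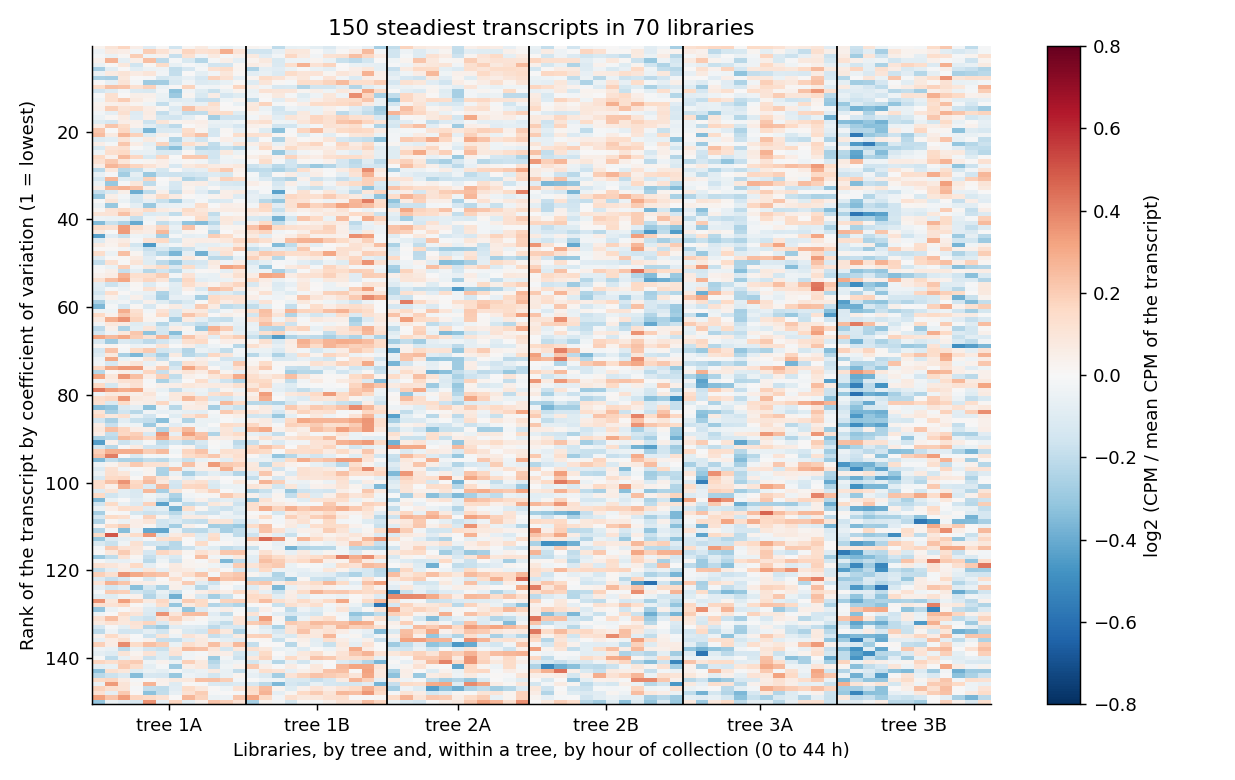
Level of each of the 150 transcripts (down the page, by rank of CV) in each of 70 libraries (across, by tree and, within a tree, by hour of collection), as log2 of its CPM over its own mean. Blue is below the mean and red above it. The early libraries of tree 3B are blue for many transcripts at once.

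The widest range of tree means belonged to psme_t028639. It averaged 41.5 ± 2.6 CPM in tree 3A (SD, n = 12), with libraries from 36.2 to 45.6 CPM around a median of 41.2 CPM. In tree 3B it averaged 31.3 ± 3.6 CPM (SD, n = 12), with libraries from 24.6 to 35.8 CPM around a median of 32.2 CPM. By CPM these 2 trees of 1 family did not overlap in any library, and the other 4 trees had means from 35.3 to 37.7 CPM. With library sizes scaled by TMM, which sets libraries level on the bulk of their transcripts, libraries of trees 3A and 3B did overlap. Tree 3A was still the highest, and the lowest was tree 1B in place of 3B.

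For psme_t012492 the highest tree was 1A, with 159.6 ± 15.7 CPM (SD, n = 12; libraries from 125.9 to 177.3 CPM), and the lowest was 1B of the same family, with 121.1 ± 7.0 CPM (SD, n = 11; libraries from 104.6 to 132.9 CPM). The libraries of these 2 trees overlapped between 125.9 and 132.9 CPM, and they were the highest and lowest trees under both scalings. The third, psme_t028329, averaged 60.3 ± 4.9 CPM in tree 2A (SD, n = 11; 54.2 to 71.7 CPM) and 46.5 ± 3.8 CPM in tree 3B (SD, n = 12; 39.8 to 54.0 CPM). By CPM its 2 extreme trees did not overlap, by a narrow margin. Under TMM scaling libraries of trees 2A and 3B did overlap, and the lowest tree was again 1B.

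No tree was highest or lowest for all of the 150. By CPM, the highest tree mean was in 1B for 42 transcripts, in 2A for 37, in 1A for 23, in 2B for 22, in 3A for 15 and in 3B for 11. The lowest was in 3B for 49 transcripts, in 1A for 25, in 2B and 3A for 21 each, and in 1B and 2A for 17 each. These directions depended on how the libraries were scaled. With TMM scaling the highest tree mean was in 2A for 52 and 3B for 50 transcripts, and the lowest in 2B for 76 and 1B for 51, so that tree 3B turned from the tree most often lowest to one most often highest.

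The difference between the scalings is in what they hold constant. CPM holds the summed count of a library constant, so a few transcripts with very many reads lower all others. TMM (trimmed mean of M values) adjusts each library so that the bulk of the transcripts does not shift between libraries on average. A common movement of the 150 was therefore followed in each library as the median, over the 150, of the level divided by the transcript's own mean. By CPM this median level ran from 0.873 in tree 3B at hour 4 to 1.09 in tree 3A at hour 40, with an SD over the 70 libraries of 4.82%. On TMM-scaled sizes it ran from 0.808 in tree 2B at hour 44 to 1.16 in tree 3B at hour 4, with an SD of 7.48%.

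Tree 3B at hour 4 was thus the lowest library of the 150 under one scaling and the highest under the other. The first 4 collections of that tree moved alike: at hours 0, 4, 8 and 12 the median level was 0.936, 0.873, 0.894 and 0.878 by CPM, and 1.10, 1.16, 1.10 and 1.09 on TMM-scaled sizes. Their TMM factors were 0.851, 0.748, 0.809 and 0.802, and their 10 most counted transcripts took 16.3% to 20% of the counts, where the median of the 70 libraries was 12.7%. Such shares also occurred elsewhere, with varied TMM factors. They were 22.5% in tree 3A at hour 16 (factor 0.934), 18.6% in tree 3A at hour 8 (0.846) and 18.6% in tree 2B at hour 44 (1.14). Of the 150 transcripts, 48 had their lowest CPM of all libraries in 1 of the first 4 collections of tree 3B, and 2 had their highest there. Whether these libraries of tree 3B differ in the needles or in the sequencing was not tested.

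**Figure D3:**
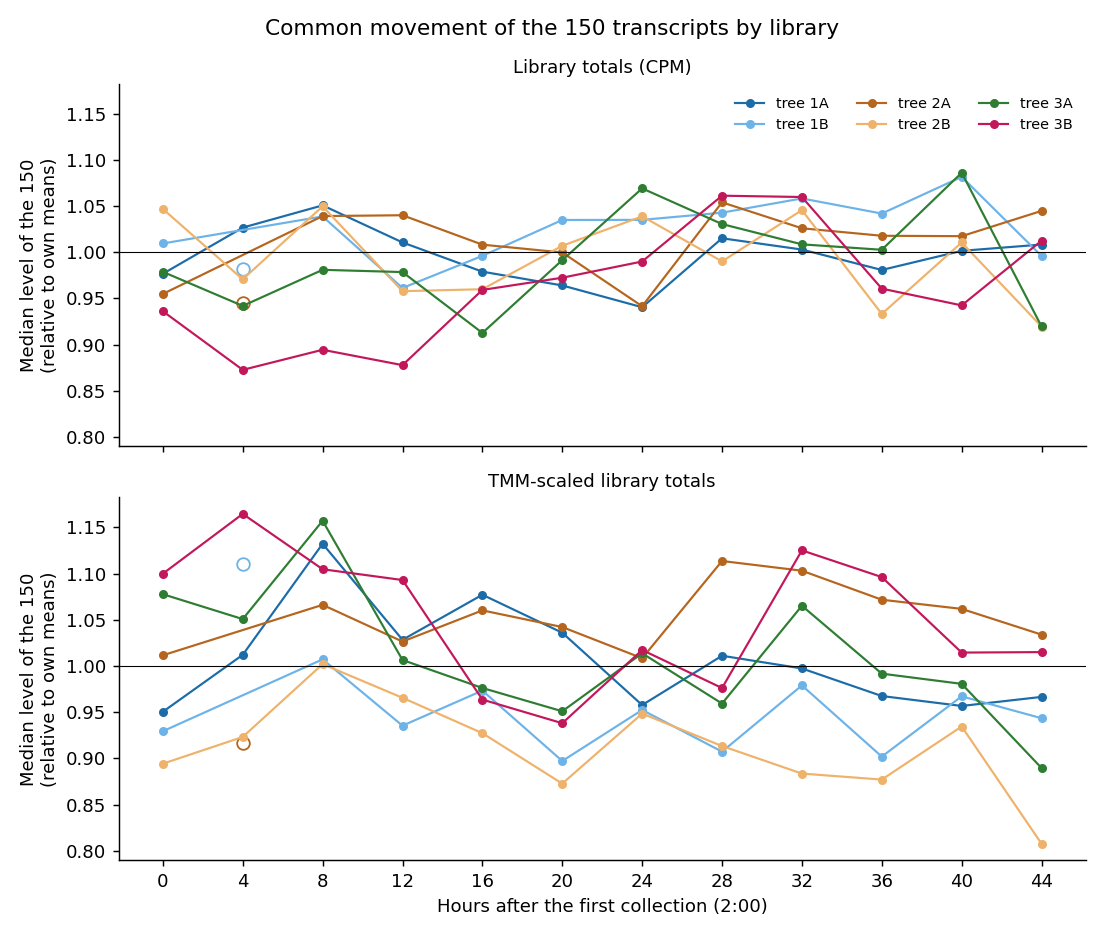
Median level of the 150 transcripts relative to their own means (y) against hours after the first collection (x), 1 line per tree, with CPM in the upper panel and TMM-scaled sizes in the lower. Open circles are the 2 libraries left out. Tree 3B starts below every other tree by CPM (0.936 at hour 0) and above every other tree with TMM (1.10).

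The first principal component of their log2 CPM held 22.2% of the variance with the same sign for 143 of the 150, and the second held 12.1%. Over the 11175 pairs of the 150, the correlation of log2 CPM across the 70 libraries had a median of 0.18 (5th to 95th percentile −0.22 to 0.54). All pairs share the same libraries and totals, and the correlations are given as a description.

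Fitted daily curves of these transcripts were small. A 24-hour cosine curve was fitted on counts with edgeR's quasi-likelihood model and TMM scaling, with tree and day as terms. Over the 150, the fitted ratio of peak to trough ran from 1.02 to 1.25 (median 1.10). It was called at an adjusted p under 0.05 in 88 of the 150 (58.7%), where 63.8% of all 52820 transcripts tested and 74.1% of the other transcripts of the range were called. Since the choice used the same libraries, nothing is read from this difference. Among the 88, the ratio ran from 1.08 to 1.25 with a median of 1.13, it was at least 1.2 in 8, and it reached 1.5 in 0.

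The largest curve was that of psme_t015647. Its clock-time means at 2:00, 6:00, 10:00, 14:00, 18:00 and 22:00 were 140.2, 140.9, 146.7, 132.8, 124.1 and 122.7 CPM. Libraries at 10:00 ran from 121.3 to 171.2 CPM around a median of 149.1 CPM, and those at 22:00 from 96.5 to 143.9 CPM around 124.3 CPM, so the times overlapped. The fitted peak-to-trough difference was 0.33 ± 0.04 on the log2 scale (SE), a ratio of 1.25, with the peak at a clock time of 8.14 ± 0.52 h (SE).

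For psme_t019813 the night and morning were the high side. Its clock-time means, in the same order, were 26.7, 27.3, 27.4, 22.6, 22.7 and 26.0 CPM. Libraries at 6:00 ran from 23.5 to 31.1 CPM (median 27.3 CPM) and those at 14:00 from 20.9 to 25.8 CPM (median 22.3 CPM). The fitted difference was 0.31 ± 0.05 (log2, SE), with the peak at 5.76 ± 0.62 h. The third largest curve, of psme_t017007, was 0.29 ± 0.06 (log2, SE) with its peak at 10.3 ± 0.8 h.

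At the other end, psme_t021881, psme_t012876 and psme_t012856 had fitted ratios of 1.02 each. Transcript psme_t021881 had clock-time means between 106.5 and 117.6 CPM. Tree 1A had libraries from 96.2 to 145.3 CPM, and tree 2A the narrower 109.6 to 125.5 CPM. Its CV of 11.3% was above the median of the 150.

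**Figure D4:**
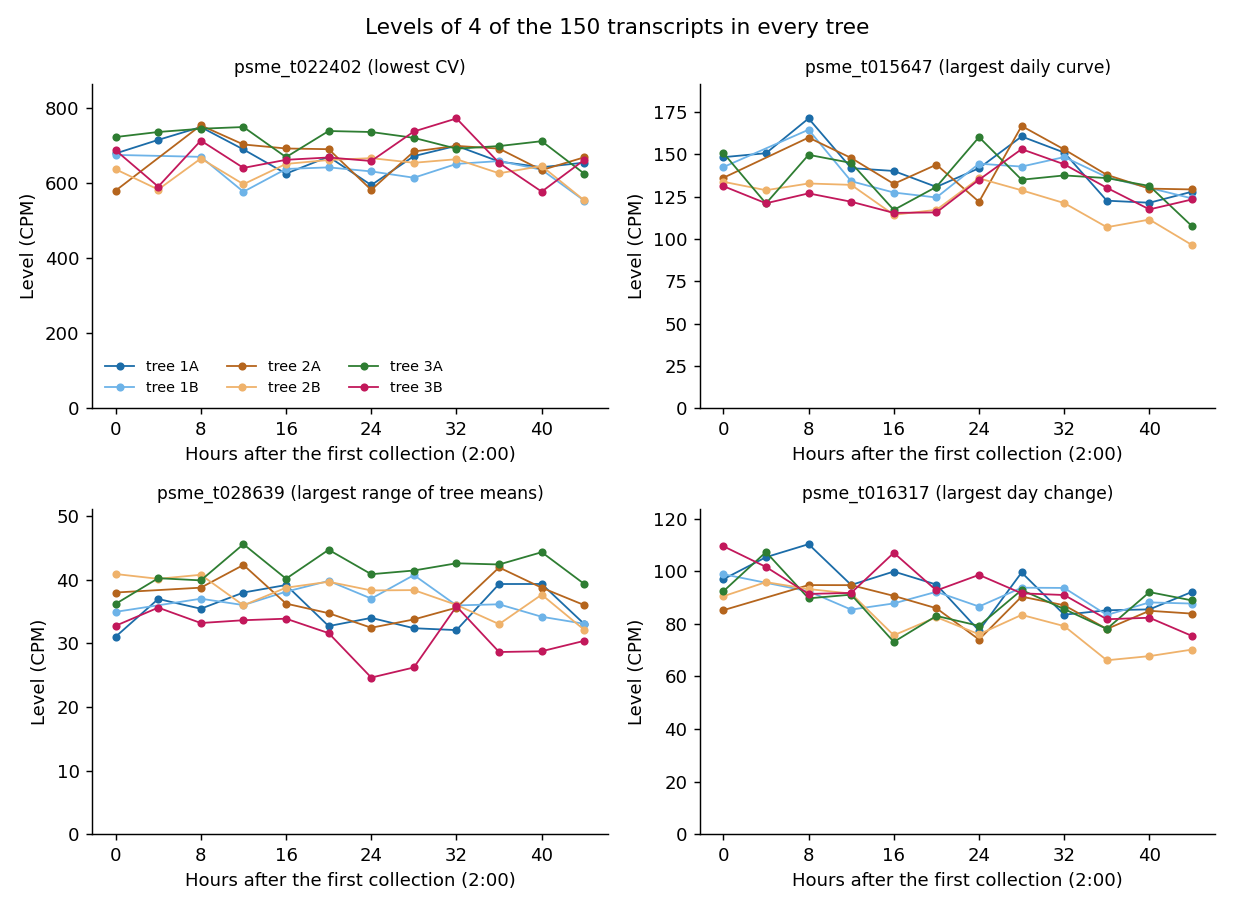
Level (CPM) of 4 of the 150 transcripts against hours after the first collection, 1 line per tree: the lowest CV (psme_t022402), the largest daily curve (psme_t015647), the largest range of tree means (psme_t028639) and the largest day difference (psme_t016317). In psme_t028639 tree 3A lies above tree 3B throughout by CPM, between 36.2 and 45.6 CPM against 24.6 and 35.8 CPM, but not on TMM-scaled sizes.

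Fitted peaks of the called curves were counted by clock time. Of the 88, 53 peaked at a clock time from 8 to 12 h, 20 from 4 to 8 h, 14 from 12 to 16 h and 1 from 20 to 24 h. The window from 8 to 12 h held 60.2% of the 88, where it held 12.9% of all 33718 transcripts called and 23.2% of the 5179 called among the others of the range. By plain CPM the highest clock-time mean was at 10:00 for 60 of the 150 and the lowest at 14:00 for 44 and at 22:00 for 41. With library totals as the only scaling, 58 of the 150 were called, with 62.5% of all transcripts tested and 69.5% of the others of the range, and their peaks were spread over 20 from 8 to 12 h, 17 from 4 to 8 h, 4 from 12 to 16 h, 5 from 16 to 20 h, 6 from 20 to 24 h and 6 from 0 to 4 h. The window from 8 to 12 h then held 34.5% of the 58, 8.42% of all called and 14.1% of the called others of the range. These peaks come from the libraries that the choice used, and nothing is read from the differences. Both scalings called 49 transcripts, and 53 were called under neither.

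With clock times compared without an assumed shape, 81 of the 150 were called, against 65% of all tested and 75.1% of the others of the range. Tree differences were called in 140 of the 150, with 91.6% of all and 96.1% of the others. Repeated libraries of a tree stand behind this test, so it compares these 6 trees alone. The test of whether the daily curve differs between trees called 0 of the 150 (edgeR), with 0.375% of all and 0.129% of the others. At an unadjusted p under 0.05 it gave 2 of the 150 in edgeR, 6 in DESeq2 and 2 in limma on the authors' normalized values. The share of all transcripts at that unadjusted threshold was not counted, so nothing is read from these counts. The adjusted count was 0 in each of these tools. The choice used the libraries of all these tests, so nothing is read from how the shares differ.

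Day 2 and day 1 were close in all of the 150, as the rule requires, since it chose low variation over these same libraries. The ratio of the day 2 mean to the day 1 mean by CPM ran from 0.904 to 1.14 with a median of 1.02. The sign of this difference depended on the scaling. With TMM, 61 of the 150 were called, along with 32.7% of all transcripts tested and 59% of the others of the range. Day 2 was the higher day for 11 of the 61 and the lower for 50. Among all transcripts 14.4% were called higher and 18.2% lower on day 2, and among the others of the range 28.5% and 30.5%. With library totals alone 46 were called, along with 32.3% of all and 58.1% of the others. Day 2 was then the higher day for 40 of the 46 and the lower for 6, where all transcripts had 20.7% called higher and 11.5% lower, and the others of the range 39.8% and 18.3%. The fitted difference, day 2 minus day 1 on the log2 scale, had a median of −0.06 with TMM (−0.24 to 0.11) and 0.03 with library totals (−0.16 to 0.19). The 2 medians had opposite signs. Because the choice used these libraries, nothing is read from how the shares of the 150 differ from those of the others.

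The largest day difference had the same sign under both scalings. Transcript psme_t016317 averaged 84.3 ± 8.0 CPM on day 2 (SD, n = 36; 66.1 to 99.5 CPM, median 85.0 CPM) and 93.2 ± 8.6 CPM on day 1 (SD, n = 34; 73.1 to 110.3 CPM, median 92.4 CPM). The 2 days overlapped over most of their range. The fitted difference was −0.24 ± 0.03 with TMM (log2, SE) and −0.16 with library totals. The next were psme_t015544, with −0.19 ± 0.03 and −0.11, and psme_t026482, with −0.18 ± 0.03 and −0.10. With TMM in the last 8 collections alone, psme_t016317 had −0.15 and psme_t015544 −0.11. With a term for each tree before and after the fourth collection, chosen after seeing the data, they had −0.14 and −0.11. In both settings only the collections at hours 16 and 20 stand for day 1 in the day difference. The 2 settings therefore make nearly the same comparison. Under both of these settings psme_t015544 no longer passed the threshold. Transcripts psme_t018119 and psme_t015430 had the smallest differences with TMM, −0.0013 and −0.0016, and with library totals both stood at 0.08.

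The 2 libraries left out did not enter the choice, but other libraries of the same trees did, so their values are not independent of it. In the library labelled tree 1B hour 4, 145 of the 150 (96.7%) lay inside the range of the other 70 libraries, and so did 95.7% of the other transcripts. In the library labelled tree 2A hour 4, 147 of the 150 (98.0%) lay inside, and 99.3% of the others. These ranges were the narrower ones for the 150, as given above. The farthest value was that of psme_t015900 in the library labelled tree 1B hour 4, at 51.3 CPM, 3.28 SDs below its mean and under its lowest other library of 56.9 CPM. In the same library psme_t013552 had 73.2 CPM, where the other 70 ran from 76.8 to 122.2 CPM, and in the library labelled tree 2A hour 4 psme_t012492 had 104.9 CPM, inside its range. With both libraries taken into the choice, 145 of the 150 were chosen again.

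To read steadiness in samples that did not choose it, the same rule was applied to part of the libraries and the chosen 150 were read in the rest. The 150 chosen on day 1, of which 86 belong to the 150 described above, had a median CV of 11.6% on day 2 (7.12% to 20.5%), where all 7339 transcripts of the range on day 2 had a median of 24.1%. Of these 150, 113 lay in the lowest 10% of day 2 and 0 lay above its median. Chosen on day 2 and read on day 1, the median was 12.3% against 23.4%, with 104 in the lowest 10%. The same trees are on both sides, so these values are of the same trees at other times.

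Read in other trees, fewer of the chosen transcripts lay in the lowest 10%. The 150 chosen on trees 1A, 2A and 3A had a median CV of 13.7% in trees 1B, 2B and 3B (7.02% to 42.0%), against 25.2% for all 7269 transcripts of the range there. Of these, 89 lay in the lowest 10% and 5 above the median. In the other direction, 149 of the 150 were in the range, the median was 12.1% against 22.3%, 89 lay in the lowest 10% and 7 above the median. The 2 sides chose 35 transcripts in common, and the 2 days chose 53. Each side holds 1 tree of every family, so the 2 sides are related and shared the collections.

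**Figure D5:**
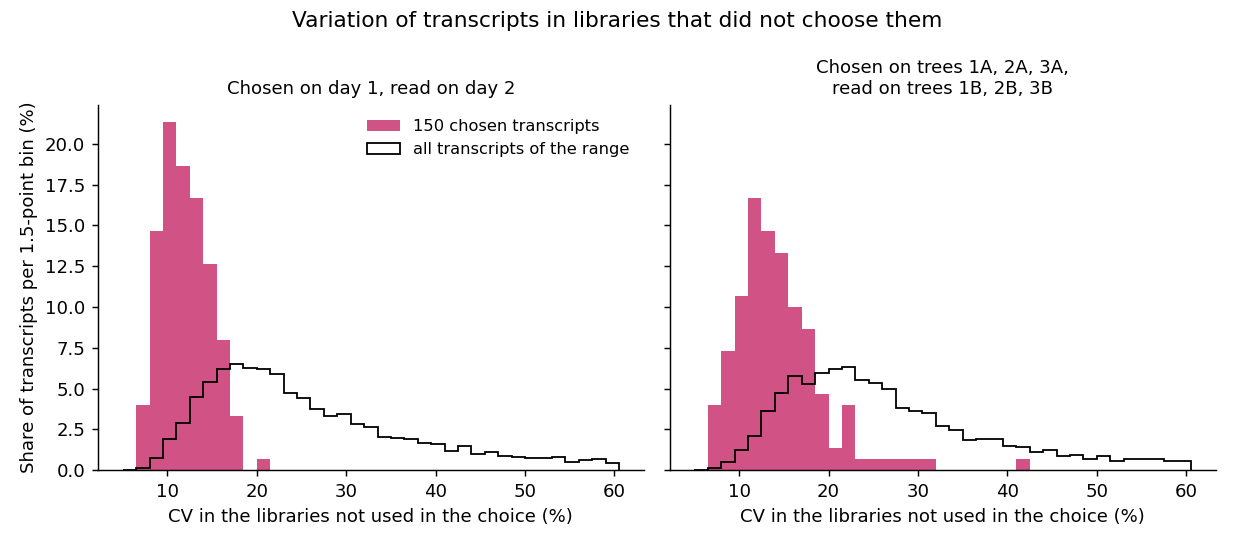
Share of transcripts (%) by CV (%) in libraries that did not enter the choice: the 150 chosen (filled) and all transcripts of the range (outline; values over 60% are not drawn). Left, chosen on day 1 and read on day 2 (medians 11.6% and 24.1%). Right, chosen on trees 1A, 2A and 3A and read on trees 1B, 2B and 3B (medians 13.7% and 25.2%).

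Daily curves were tested in the same held-out way, with edgeR fitted on the reading libraries alone. Of the 150 chosen on day 1, 88 (58.7%) were called for a daily curve on day 2, where 70.3% of the 7335 transcripts tested in the range and 58.3% of all tested were called. Of the 150 chosen on day 2, 58 (38.7%) were called on day 1, where 63.2% of the range and 49.1% of all were called. Of the 150 chosen on trees 1A, 2A and 3A, 27 (18.0%) were called in trees 1B, 2B and 3B, with 56.2% of the range and 47.4% of all. Of the 150 chosen on those trees, 58 (38.7%) were called in trees 1A, 2A and 3A, with 53.6% of the range and 43.3% of all. On day 2 the share of the chosen was close to that of all transcripts tested.

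The curves that were called were small. On day 2 the fitted ratio of peak to trough had a median of 1.14 over the 150 chosen on day 1 (1.03 to 1.52), against 1.26 over the range. Among the 88 called the median was 1.19, against 1.37 among the 5158 called in the range. In trees 1B, 2B and 3B the median over the 150 chosen on the other trees was 1.10 (1.01 to 1.32), against 1.28 over the range.

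Tree differences were read in the same libraries. On day 2, 134 of the 150 chosen on day 1 (89.3%) were called for a difference between the 6 trees, against 96.2% of the range and 90.9% of all tested. On day 1 it was 98 of the 150 chosen on day 2 (65.3%), against 76.6% of the range and 74% of all. Of the 150 chosen on trees 1A, 2A and 3A, 113 (75.3%) were called for a difference between trees 1B, 2B and 3B, against 78.4% of the range and 75% of all. In the other direction it was 107 of the 150 (71.3%), against 77.9% of the range and 70.2% of all. Outside day 1, these shares of the chosen were close to those of all transcripts tested. The ratio of the highest to the lowest tree mean among trees 1B, 2B and 3B had a median of 1.23 for the chosen and 1.36 for the range.

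How far the list itself depends on the scaling can be given as the number of the 150 chosen again. Ranked on TMM-scaled CPM, 58 of the 150 were chosen again, with DESeq2's size factors 56, and with the authors' normalized values 56. On TMM-scaled CPM the 150 had CVs from 5.88% to 18.5% (median 12.2%), and 106 of them were more variable than by CPM and 44 less. Transcript psme_t022402, first by CPM at 7.57%, had 12.9% on TMM-scaled sizes. The 92 transcripts that TMM scaling brought in stood at ranks 153 to 1238 by CPM (median rank 420), with CVs by CPM of 12.0% to 17.0%.

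A core of 20 transcripts was chosen under every one of 26 alternatives, which changed the scaling, the measure of variation, the range of means or the libraries. Their CVs ran from 7.73% to 10.8% by CPM and from 7.87% to 11.3% on TMM-scaled sizes, and their means from 21.4 to 198.2 CPM. By CV they begin with psme_t012140, psme_t015900 and psme_t013590, and psme_t013977 and psme_t013552 of those named above are also among them. The steadiest of all on TMM-scaled sizes within the core was psme_t008264, at 7.87% (10.6% by CPM, mean 51.1 CPM), named after its values were seen. Of the 20, 10 were called for a daily curve, 17 for trees and 3 for days with TMM, where 63.8%, 91.6% and 32.7% of all transcripts tested were called. The core was chosen on these libraries too, and nothing is read from its counts. Of the 150, 136 were chosen in at least 13 of the 26 alternatives.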

How the data were processed

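Needles of 6 Douglas-fir trees were collected at 12 times, 4 hours apart, and 72 polyA libraries were assigned to tree and hour by their titles, because a separate collection-time label disagreed with many titles. Strand-specific libraries were made, per the labels' protocols. The deposited counts table holds raw counts per transcript, made with Bowtie2 2.2.3 after CASAVA 1.8 per the submitters' processing notes; which transcriptome they were aligned to is not given in those notes. The second deposited table holds a signal that the authors normalized with DESeq, per the submitters' processing notes, and it was used in alternatives alone. No column of per-sample values was left unused. The 2 libraries labelled tree 1B hour 4 and tree 2A hour 4 were left out of the choice of transcripts and of the tests, since an earlier look found each nearer the other's tree.

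CPM values were counts divided by the library's summed counts, times 1000000. The 150 transcripts and the rule for those named were chosen with earlier results of these data known. The rule named the 6 of lowest coefficient of variation, the 3 of highest and 3 of lowest mean, the 3 of largest and 3 of smallest fitted daily curve, the 3 of largest range of tree means, the 3 of largest and 2 of smallest day difference, the 3 farthest from their mean in a left-out library, and 2 on each side of the limit. Models were fitted to the whole table with edgeR 4.0.16 under R 4.3.3 (filterByExpr over the 12 collections, TMM scaling, quasi-likelihood F tests, Benjamini-Hochberg adjustment over 52820 transcripts, called at an adjusted p under 0.05), with a cosine and a sine of the clock time, tree as a replicate block, and day. The edgeR tests of daily curve, day and tree were run on simulated data with known daily and day changes. These changes were all larger than the fitted ones of the 150, so changes as small as theirs were not tried. The simulated libraries were independent and held no tree differences, unlike the data. The other tools, the choice of transcripts and the held-out readings were not simulated. Alternatives were DESeq2 1.42.0, limma 3.58.1 on log2 (normalized value + 1), other scalings, filters and sets of libraries. Other steps used Python 3.11.15, numpy 2.4.6, pandas 2.3.3 and matplotlib 3.10.9.

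The tree pairs libraries because the labels say that the same trees were sampled repeatedly. As a check, deviations from the collection means over the transcripts of 20 to below 1000 mean CPM correlated with a median r of 0.79 between libraries of the same tree (374 pairs, 0.35 to 0.95) and −0.18 between libraries of different trees (2041 pairs). Over the 150 transcripts alone these medians were 0.40 and −0.087.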

Additional observations from a re-analysis of the deposited data

How the results depend on the processing

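Of the 150 transcripts, 58 were chosen again on TMM-scaled CPM, 56 with DESeq2's size factors, 56 on the authors' normalized values, 88 with the median absolute deviation over the median, 86 on day 1 alone and 91 on day 2 alone. Leaving out 1 tree at a time gave 108 to 126, the lowest without tree 3B. The SD of the median level per library, 4.82% by CPM, was 7.48% with TMM and 7.30% with DESeq2's size factors.

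Brackets in this paragraph hold, where given, the share of all transcripts tested that were called in the same setting. A count without a bracket cannot tell a change of the 150 from a change of all transcripts. Daily curves were called in 88 of the 150 (63.8%). The count was 46 with no filter on low counts (34.6%), 57 at an adjusted p under 0.01 (51.6%) and 58 with library totals alone (62.5%). It was 50 on day 1 alone (49.1%) and 61 to 86 with 1 tree left out. The highest count was 103, with DESeq2 (65.1%). Differences between clock times were called in 81 (65.0%). The count was 21 with no filter (31.5%), 53 at an adjusted p under 0.01 (53.1%) and 44 with library totals (63.2%). It was 36 on day 1 alone and 51 to 79 with 1 tree left out, the lowest without tree 3A. The highest count was 107, with DESeq2 (67.2%). Tree differences, called in 140 (91.6%), were called in 125 to 139 with 1 tree left out. They were called in 125 with library totals (93.5%) and in 143 with DESeq2 (92.4%). Differences between days were called in 61 (32.7%), and in 27 with no filter (11.9%) and 36 at an adjusted p under 0.01 (21.8%). The count was 35 in the last 8 collections (13.1%) and 39 to 56 with 1 tree left out, the lowest without tree 1A (29.3%). With a term for each tree before and after the fourth collection (chosen after seeing the data) it was 32. The highest count was 82, when only transcripts with at least 1 CPM in every library were tested (54.1%). Without the replicate block of trees the counts for daily curves, clock times and days were 53, 30 and 25. The cause of these changes was not tested.

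Over these results, 102 alternatives stayed within 1.5 times of the reported value and 25 did not. The 102 include the test of daily curves between trees, which called 0 of the 150 in every setting. Counts of transcripts chosen again and of tree differences could not rise by that factor, since they cannot pass 150. The total is therefore a tally and does not measure robustness. The 6 transcripts of the largest daily curves and day differences were picked as the largest in these same data. For them, 94 alternatives kept the side of the threshold and 2 did not. Both exceptions were the day difference of psme_t015544 (−0.11 in the last 8 collections and −0.11 with the added term). The day differences kept their sign in every alternative, and the size of a daily curve has no sign to change. The other named transcripts were not followed singly through the alternatives. Depth limits little here, since counting error made up a median of 5.32% of the variance. With 6 trees of 1 source sampled over 2 days, steadiness in other trees, sources, days or seasons was not measured.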
